A study of Mus musculus with 7 samples.

Results

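The ribosome of the mitochondrion is built from RNA encoded in the mitochondrion and from proteins encoded in the nucleus, whose genes carry symbols that begin with Mrpl or Mrps. These genes were selected by symbol alone (Mrpl or Mrps followed by a digit), which gave 69 of the 23930 genes in the table, without use of any measured value. By the place of the protein in the ribosome, 24 of them belong to the small subunit and 45 to the large subunit, and the symbols Mrps18a and Mrps30, although written as small-subunit names, denote large-subunit proteins and were counted there. Another 8 symbols of this kind, namely Mrpl23, Mrpl27, Mrpl33, Mrpl53, Mrpl57, Mrps33, Mrps34 and Mrps36, were not analysed here. Mrps36 is in any case a protein of the 2-oxoglutarate dehydrogenase complex rather than of the ribosome.

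The mitoribosome translates the few messages of the mitochondrial genome, all of which encode subunits of the respiratory chain and of ATP synthase. Its small subunit holds and decodes the message, and its large subunit joins the amino acids and releases the nascent chain at the inner membrane. Many of its proteins descend from those of the bacterial ribosome, and others were added in the line that led to mitochondria. Satellite cells, the stem cells of skeletal muscle, are known to increase their mitochondrial content when they leave quiescence after injury.

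Bulk RNA was measured in Pax7-GFP+ cells sorted from the digested hind leg muscles of C57BL/6 mice, in 3 normocapnic libraries (NC1 to NC3) and 4 hypercapnic libraries (HC1 to HC4). All mice of both groups carried the inducible Pax7-GFP reporter, in which a Cre recombinase placed at the Pax7 locus and activated by tamoxifen switches on a green fluorescent protein, so that labeled cells and their progeny stay green after Pax7 is lost. All were induced with tamoxifen at 12 weeks of age, spent 4 weeks in room air (normocapnia) or in a chamber with raised CO2 (hypercapnia), and were collected at 16 weeks. By the methods of the study, hind leg muscles of both groups were injured with cardiotoxin, a toxin that destroys myofibers, a few days before collection, and mice of both sexes were used. The deposited table, however, is titled with a number of hours that the study uses for cells kept in culture, while its methods describe cells sorted directly from muscle, and which of these the values measure could not be settled. The labels mention neither the injury nor a culture, nor do they say whether a library came from a single mouse, so the spread between libraries may hold technical as well as animal variation.

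The comparison asks how the RNA of these genes differed after exposure to hypercapnia. Values are RPM, the reads of a gene relative to a fixed number of reads in its library, from a panel that amplifies 1 short stretch of each gene, so they compare a gene between libraries and not genes with each other. The libraries held 14527445 to 23388710 reads, 1 read was worth 0.0428 to 0.0688 RPM, and the 69 genes together took 0.266% to 0.395% of the reads. Of these genes, 61 had a mean of at least 10 RPM, the means running from 1.28 RPM (Mrps7) to 254 RPM (Mrpl51). Only Mrps7 and Mrpl36 fell under 3 reads in a library, with 0 reads in NC3, where 3 reads correspond to 0.207 RPM. NC3 stood apart from the other libraries, with 16.6% of its reads in its 10 most abundant genes against 8.4% to 12.1% elsewhere. The libraries were also mixed in cell type. Pax7 itself lay between 4.34 and 268 RPM, and all 12 macrophage markers were read, although C1qa was at 0.452 RPM or less, with a summed level of 12764 to 35076 RPM in normocapnia and 20623 to 25622 RPM in hypercapnia. A single gene, Lyz2, carried much of that sum, at 8354 to 29108 RPM over the 7 libraries. The 6 myofiber markers summed to 134 to 2897 RPM over the 7 libraries, the 6 endothelial markers to 45.8 to 509 RPM, the 6 markers of fibro-adipogenic cells (connective tissue progenitors) to 935 to 2230 RPM, the 6 neutrophil markers to 65.4 to 294 RPM, and the 5 lymphocyte markers to at most 3.05 RPM. Fewer cells of a type and less RNA per cell cannot be told apart in such libraries.

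Promoters are shown first, because several factors that act on nuclear genes of mitochondria are known by their sites. NRF1 binds a palindrome with the letters GCGCATGC, factors of the ETS family (among them GABP) bind sites with the letters CCGGAAG, and YY1 binds sites with the letters AAGATGGC. These letters were searched on both strands of RefSeq windows (build GRCm38.p6) that run from 250 bases before to 50 bases after a start. A window was found for 61 of the 69 genes, 67 windows in all, some genes having several starts. The ETS letters were in 29.9% of these windows, against 8.86% of all 32851 windows and 18.5% of the 8205 windows of genes averaging 10 RPM or more. The YY1 letters were in 17.9%, against 2.75% and 4.68%, and the NRF1 letters in 10.4%, against 2.71% and 5.47%. The following stretches of 30 bases are given for some of the genes described below, with the matched letters in capitals, each read 5′ to 3′ on the strand of the gene. Matches in other genes described below, among them Mrpl18, Mrpl32, Mrps11, Mrps12, Mrps16, Mrps21 and Mrps23, are not shown. Mrps18a also held the ETS letters, from 26 bases before the start. A match is a description of letters and not evidence of a bound site.
Mrpl52, ETS letters on the opposite strand, from 47 bases before the start (chr14:54426851-54426880, plus strand): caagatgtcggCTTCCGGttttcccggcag
Mrpl52, ETS letters on the opposite strand, from 3 bases after the start (chr14:54426900-54426929, plus strand): ggccacgcccaCTTCCGGttcccttgctcc
Mrpl51, ETS letters, from 90 bases before the start (chr6:125192099-125192128, plus strand): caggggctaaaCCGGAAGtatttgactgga
Mrpl10, NRF1 letters on the opposite strand, from 134 bases before the start (chr11:97041437-97041466, plus strand): cccagctccacGCATGCGCatagcggccct
Mrpl42, YY1 letters, from 28 bases after the start (chr10:95501904-95501933, minus strand): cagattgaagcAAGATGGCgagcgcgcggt
Mrpl35, YY1 letters, from 24 bases after the start (chr6:71823743-71823772, minus strand): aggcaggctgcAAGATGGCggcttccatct
Mrps18a, YY1 letters, from 12 bases after the start (chr17:46111004-46111033, plus strand): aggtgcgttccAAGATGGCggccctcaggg
Mrps24, YY1 letters, from 37 bases after the start (chr11:5707652-5707681, minus strand): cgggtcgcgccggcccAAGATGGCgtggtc

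The last 4 stretches show the YY1 letters a short way downstream of the start, on the strand of the gene. Among the 12 genes with the YY1 letters, Mrpl32, Mrpl36, Mrps11 and Mrps12 instead had them before the start and on the opposite strand. The log2 fold changes were above 0 for 10 of the 12, with the 4 shown among them, and below 0 for Mrpl32 and Mrps11. The windows of Mrpl2, Mrpl14 and Mrps25 held none of the 3 sets of letters. Median log2 fold changes between the groups were taken for genes with and without the letters. The median was 0.26 for the 20 genes with the ETS letters and 0.27 for the 41 without, 0.38 for the 12 with the YY1 letters and 0.26 for the 49 without, and 0.17 for the 7 with the NRF1 letters and 0.29 for the 54 without.

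Between the groups, most of these genes had somewhat higher means in hypercapnia, and few differed by more than the spread between libraries. The difference in log2(RPM + 1) was tested with limma on the whole table, and a gene was called when its unadjusted p was under 0.05 and its fold change above 1.5, the thresholds of the study. At these thresholds 2 of the 69 genes (2.9%) were called, against 2.57% of all genes and 5.54% of genes averaging 10 RPM or more. Mrpl14 was called higher, a direction in which 1.43% of all genes were called, and Mrpl52 was called lower, as were 1.14% of all genes. An unadjusted p under 0.05 was reached by 4 of them (Mrpl52, Mrpl2, Mrps25 and Mrpl14), that is 5.8% against 4.66% of all genes. Of genes averaging 1 RPM or more, 7.58% reached it. At 10 RPM or more it was 6.56% of the members against 9.36% of all. After Benjamini-Hochberg adjustment over all genes by limma, 0 of the 69 passed 0.05, and the lowest adjusted p was 0.65. These shares lie near those of the table as a whole, and under those of genes averaging 10 RPM or more.

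The log2 fold changes ran from -0.69 (Mrpl52) to 1.33 (Mrpl12), and 51 of 69 (73.9%) were above 0, against 62.1% of all genes averaging 1 RPM or more, a level that all 69 reached. Among genes averaging 10 RPM or more, this was 72.1% of the members and 59.5% of all. Their median was 0.27, while the median of all genes at 1 RPM or more was 0.16 on the same scale, and 44 of the 69 (63.8%) lay above that all-gene median. With median-of-ratios scaling the all-gene median moved to 0.04 and the median of the family to 0.14, so that the gap between them was 0.10 in place of 0.11. The groups did not overlap in 5 genes that were higher in hypercapnia (Mrpl14, Mrpl51, Mrpl10, Mrpl42 and, by less than the printed digits, Mrps25), all with a mean of at least 10 RPM, and in 2 that were lower (Mrpl52 and Mrpl2). Among all genes with such a mean, the groups were apart upward in 4.96% and downward in 4.67%.

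**Figure D1:**
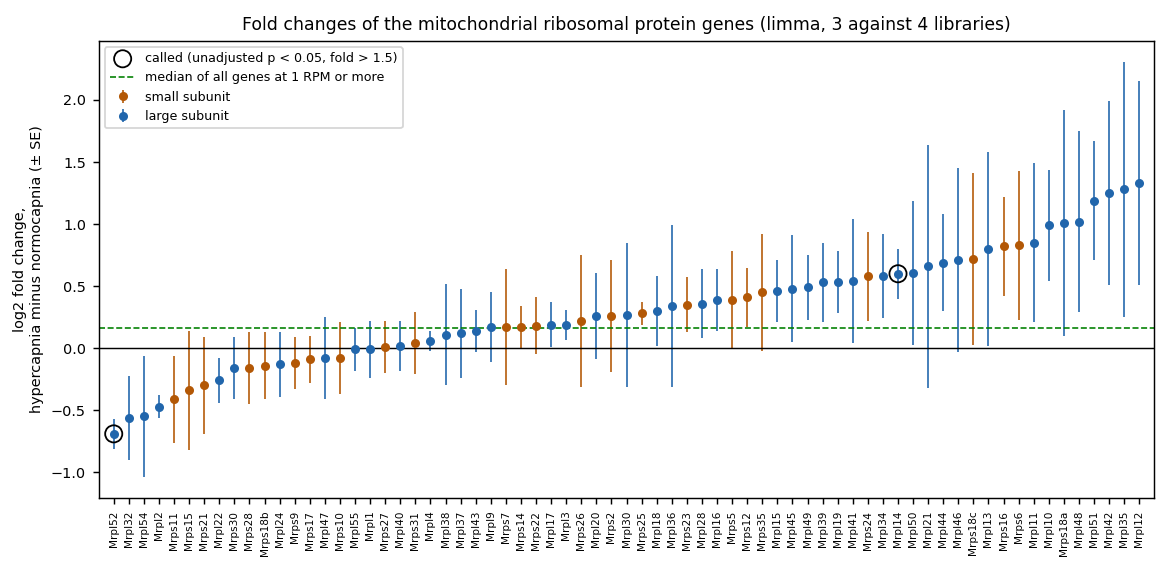
Log2 fold change of each of the 69 genes on the log2(RPM + 1) scale, hypercapnia minus normocapnia, ordered by size, with bars of 1 SE from limma, the small subunit in orange and the large subunit in blue. Circles mark Mrpl52 and Mrpl14, the 2 genes called, and the dashed line is the all-gene median of 0.16. The error bars widen toward the right, where Mrpl12 ends the order at 1.33.

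Mrpl52, which encodes a large-subunit protein without a bacterial counterpart, had 157, 138 and 138 RPM in normocapnia (NC1 to NC3 in order) and 95.3, 84.2, 103 and 75.0 RPM in hypercapnia (HC1 to HC4). Each hypercapnic library lay below each normocapnic library. The means were 144 ± 10.9 RPM (SD, n = 3) and 89.3 ± 12.3 RPM (SD, n = 4), a log2 fold change of -0.69 (SE 0.12, adjusted p 0.65 by limma). It was called lower under all 18 alternative analyses, with log2 fold changes between -0.86 and -0.61. In the annotation its exons overlap no other gene.

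Mrpl2 encodes a protein of the L2 family, which is shared by all ribosomes and sits by the center where amino acids are joined. It had 38.8, 32.3 and 32.4 RPM in normocapnia and 23.7, 24.7, 27.1 and 23.3 RPM in hypercapnia. The groups were again apart, and the log2 fold change was -0.47 (SE 0.09, adjusted p 0.65 by limma). This stayed under the fold threshold in limma on RPM, and passed it with DESeq2, with filtered edgeR and after quantile normalization or median-of-ratios scaling (-0.64 to -0.59).

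Mrpl14, a protein of the L14 family at the face where the subunits meet, was the only member called higher. It had 16.4, 15.5 and 9.71 RPM in normocapnia and 22.9, 22.7, 21.4 and 17.6 RPM in hypercapnia. The groups were apart by about 1 RPM at their nearest, between NC1 and HC4. The log2 fold change was 0.60 (SE 0.20, adjusted p 0.915 by limma), and it was called in 6 of 18 alternatives. The call was lost without NC3 (0.38), HC1 (0.56), HC2 (0.56) or HC3 (0.59), and in edgeR, DESeq2 and with either other scaling (0.39 to 0.56). Exons of Mrpl14 overlap those of Tmem63b on the opposite strand, so the source of its reads depends on where the amplified stretch lies, which was not analysed here.

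Mrps25, a small-subunit protein added in mitochondria, had 24.9, 23.7 and 28.2 RPM in normocapnia and 33.9, 33.2, 30.2 and 28.2 RPM in hypercapnia. The groups met at 28.2 RPM, with NC3 and HC4 side by side. Its log2 fold change of 0.28 (SE 0.09, adjusted p 0.915 by limma) was small and stayed under the fold threshold in all 18 alternatives (0.10 to 0.43). Exons of Nr2c2 overlap it on the opposite strand.

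Larger differences in the mean were found for genes whose normocapnic libraries were themselves far apart. Mrpl51, a large-subunit protein added in mitochondria, had 275, 152 and 65.3 RPM in normocapnia and 344, 297, 297 and 349 RPM in hypercapnia. The hypercapnic libraries stayed within a narrow band above all normocapnic ones, which spread over more than 200 RPM. The log2 fold change was 1.19 (SE 0.48, adjusted p 0.915 by limma), and 9 of 18 alternatives called it, among them edgeR (1.02) and DESeq2 (0.98). Without NC3 it was 0.65 and not called, and without NC1 it was 1.68 and called.

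Mrpl10 encodes the base of the stalk that recruits the factors of translation, and Mrpl12 encodes the protein that stands on that base. Mrpl10 had 54.0, 40.1 and 14.1 RPM in normocapnia and 58.0, 65.4, 64.1 and 65.9 RPM in hypercapnia. The groups were apart, with a log2 fold change of 0.99 (SE 0.45, adjusted p 0.915 by limma). It was called in 6 of 18 alternatives, was 0.44 without NC3, and was 1.37 and called without NC1. Mrpl12, described here after its values were seen, had 110, 46.3 and 8.95 RPM in normocapnia and 78.6, 83.6, 108 and 106 RPM in hypercapnia. NC1 was the highest library for this gene and NC3 the lowest, so the stalk proteins shared the low value in NC3 but not the order of the groups. The log2 fold change of Mrpl12 was 0.38 without NC3, and 2.12 and called without NC1.

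**Figure D2:**
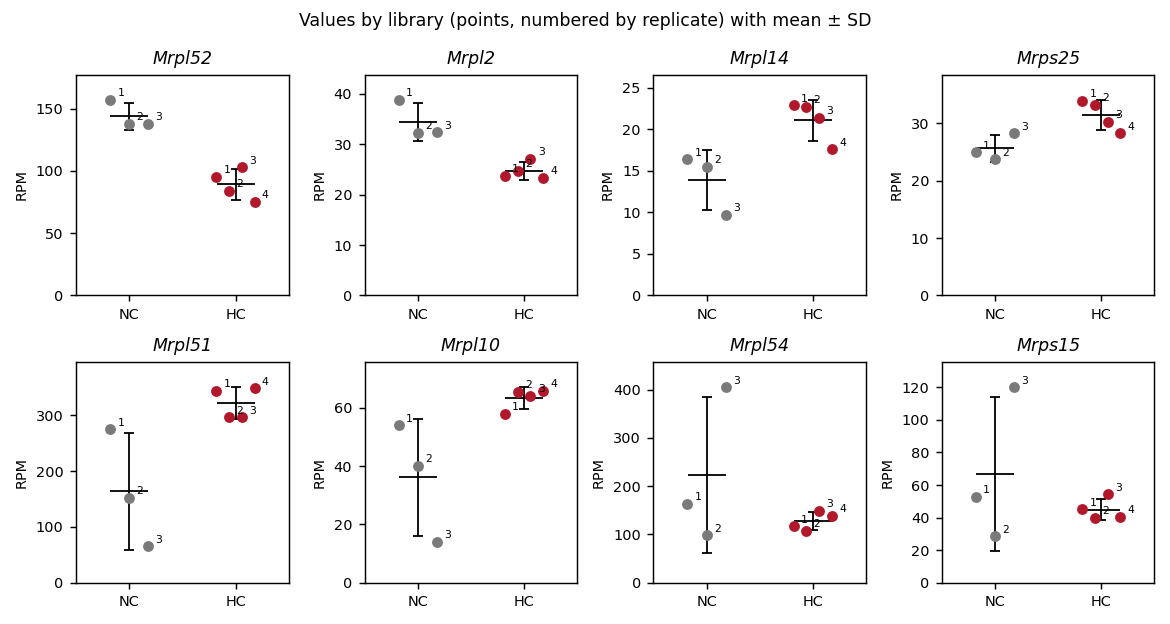
RPM of 8 genes in each library, normocapnia (NC, gray) and hypercapnia (HC, red), with points numbered by replicate and bars for the mean ± SD (n = 3 and n = 4). Mrpl52 and Mrpl2 are lower and Mrpl14, Mrpl51 and Mrpl10 higher in every hypercapnic library than in any normocapnic one, Mrps25 meets at 28.2 RPM in NC3 and HC4, and Mrpl54 (405 RPM) and Mrps15 (120 RPM) show NC3 far above the rest.

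The normocapnic libraries did not move as a group. NC3 was the lowest of the 7 libraries for 44 of the 69 genes (63.8%) and the highest for 12. Among members averaging 10 RPM or more, NC3 was lowest in 60.7%, against 49.5% of all genes at that level. NC2 lay below all 4 hypercapnic libraries in 36 genes (52.2%). For members averaging 10 RPM or more this was 57.4%, against 31.9% of all such genes. NC1 went the other way, above all 4 hypercapnic libraries in 27 genes (39.1%), near the 41.3% of all genes averaging 1 RPM or more. The 4 hypercapnic values fell inside the range of the 3 normocapnic ones in 29 genes (42%), again near the 41.8% of all such genes. The SD of log2(RPM + 1) was larger in normocapnia for 65 of 69 genes, with a median of 0.62 against 0.20 in hypercapnia, and for 88.6% of all genes averaging 10 RPM or more.

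The count of calls moved with the libraries included. When NC1 was left out, 15 members were called higher and 1 lower, that is 23.2% of the family against 8.32% of all genes. Among genes averaging 10 RPM or more it was 24.6% of the members (15 of 61) against 16.8% of all. Those called higher were Mrpl10, Mrpl12, Mrpl14, Mrpl15, Mrpl16, Mrpl19, Mrpl39, Mrpl44, Mrpl45, Mrpl49, Mrpl51, Mrps23, Mrps24, Mrps35 and Mrps6. When NC2 was left out, Mrpl32 joined Mrpl52 among those called lower (-0.90). In that fit 4.35% of the members and 5.04% of all genes were called in either direction. At 10 RPM or more it was 4.92% of the members against 11.5% of all. When NC3, HC1, HC2 or HC3 was left out, 0 members were called higher, against 0.903% to 1.23% of all genes, and Mrpl52 was the member called lower.

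**Figure D3:**
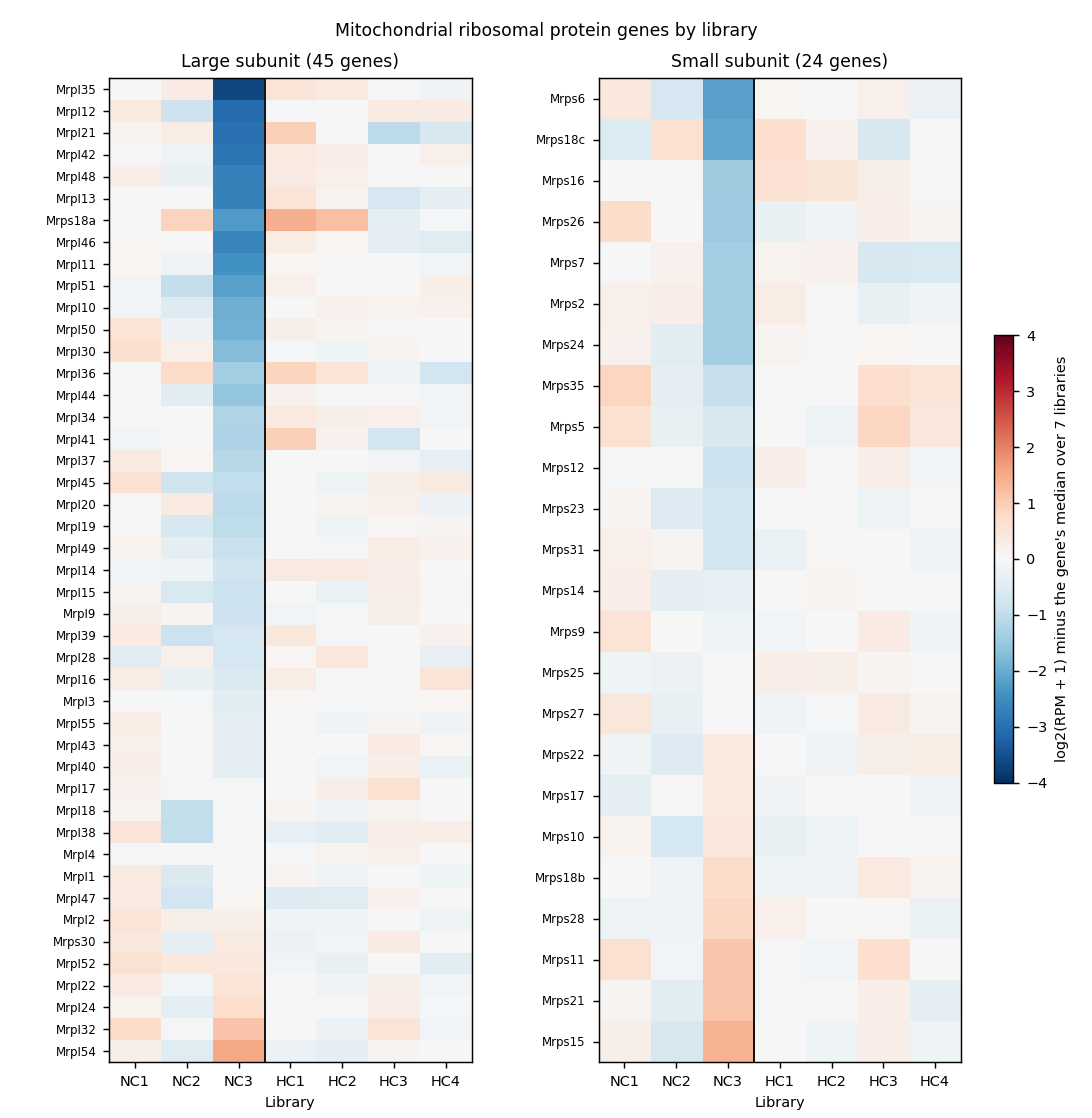
Log2(RPM + 1) of each gene in each library minus the median of that gene over the 7 libraries, for the large and the small subunit, with genes ordered by NC3 relative to the median of the other libraries. Blue is below and red above the median, and the line parts normocapnia from hypercapnia. NC3 is lowest in 44 of the 69 rows, from Mrpl35 at the top of the large subunit, and the SD is larger among the normocapnic columns in 65 rows.

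NC3 held extreme values in both directions, which is described here for genes chosen after their values were seen. Mrpl35, a large-subunit protein, had 2.20 RPM (32 reads) in NC3 and between 35.5 and 56.1 RPM in the other 6 libraries. Relative to the median of the others, this was a log2 difference of -3.81. Between the groups its log2 fold change was 1.28, and 0.01 without NC3. Mrpl42 had 8.26 RPM in NC3 and 59.2 to 88.7 RPM elsewhere, and the hypercapnic libraries (67.8 to 88.7 RPM) all exceeded NC1 (65.8 RPM), with a log2 fold change of 1.25 that was 0.33 without NC3. Mrpl54 was at the opposite end, with 405 RPM in NC3, 164 and 98.6 RPM in NC1 and NC2, and 117, 108, 149 and 139 RPM in hypercapnia. Its log2 fold change of -0.55 (SE 0.49) came to 0.00 without NC3 and to -1.01 without NC2.

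Among small-subunit proteins, Mrps15 and Mrps21 were also highest in NC3. Mrps15, of the S15 family that binds ribosomal RNA, had 52.9, 28.5 and 120 RPM in normocapnia and at most 54.2 RPM in hypercapnia. Its log2 fold change was -0.34 (SE 0.48), 0.19 without NC3 and -0.82 without NC2. Mrps21 had 69.1, 46.3 and 139 RPM in normocapnia and 61.3, 63.3, 77.0 and 49.2 RPM in hypercapnia. Its log2 fold change was -0.30 (SE 0.39), 0.13 without NC3 and -0.66 without NC2. For these genes the sign between the groups was that of a single library.

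Summed over the family, the level was 3951, 2664 and 2891 RPM in normocapnia and 3561, 3314, 3741 and 3494 RPM in hypercapnia. The means were 3169 ± 687 RPM (SD, n = 3) and 3528 ± 176 RPM (SD, n = 4), a difference within the spread of normocapnia. Some markers of cell type and state moved with the same libraries, and others did not. The myofiber sum was highest in NC1 (2897 RPM) and lowest in NC3 (134 RPM). The endothelial and fibro-adipogenic sums were lowest in HC2 (45.8 and 935 RPM), and highest in HC3 (509 RPM) and HC4 (2230 RPM). The neutrophil sum was lowest in NC3 (65.4 RPM) and highest in HC3 (294 RPM). The 12 satellite cell markers summed to 4500, 1020 and 538 RPM in normocapnia and 926, 863, 1714 and 1424 RPM in hypercapnia. Sdc4 alone made up 781 RPM of that sum in NC2 and 441 RPM in NC3, and the other 11 markers summed to 3777, 239 and 96.4 RPM in normocapnia and to 485, 434, 1265 and 979 RPM in hypercapnia. NC2 was below all 4 hypercapnic libraries in 9 of the 12 satellite cell markers and NC3 in 10. The 4 proliferation markers read here (Mki67, Top2a, Cdk1 and Mcm2) summed to 323, 58.0 and 28.2 RPM and to 224, 208, 305 and 229 RPM. NC1 was highest in the satellite cell and proliferation sums, as it was in that of the mitoribosomal proteins. NC2 and NC3 were the lowest in proliferation markers, in the satellite cell markers other than Sdc4 and in mitoribosomal proteins. With Sdc4 included, NC2 (1020 RPM) lay above HC1 (926 RPM) and HC2 (863 RPM). The lists without Sdc4 and without Lyz2 were not among the planned lists. The macrophage sum is mostly Lyz2, which alone had 8354 RPM in NC1 and 29108 RPM in NC3. The other 11 macrophage markers summed to 4410, 10580 and 5968 RPM in normocapnia and 8894, 8755, 6172 and 6636 RPM in hypercapnia, lowest in NC1 and highest in NC2. Of the 12 markers, 6 were lowest in NC1 and the other 6 in NC3. The satellite cell list had 0 genes called in either direction, the proliferation list 0, and the macrophage list 1 (8.33%), Adgre1, higher (1.31). Of all genes 2.57% were called, and of those averaging 10 RPM or more 5.54%. The part of cell makeup and of proliferation in the values of the mitoribosomal proteins was not tested.

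**Figure D4:**
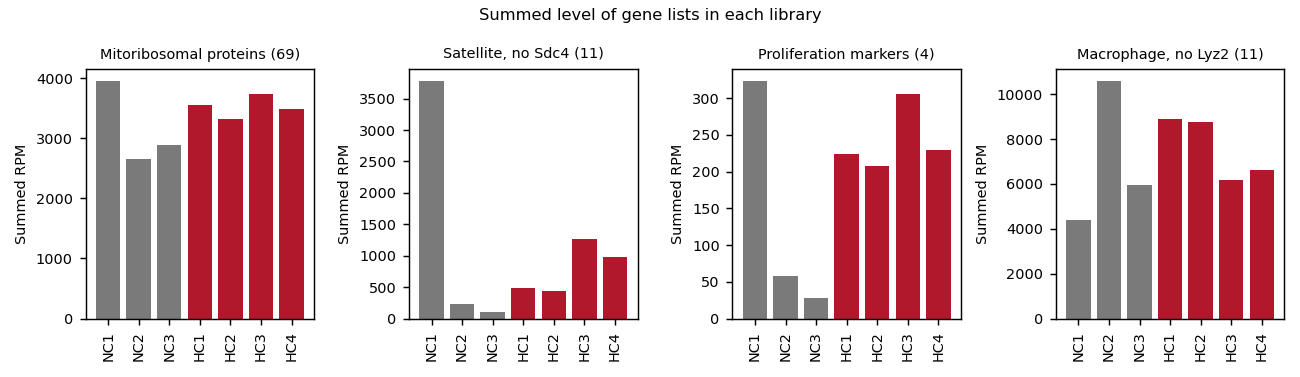
Summed RPM of the 69 mitoribosomal protein genes, of the 11 satellite cell markers other than Sdc4, of the 4 proliferation markers, and of the 11 macrophage markers other than Lyz2 in each library, normocapnia in gray and hypercapnia in red, each panel on its own axis from 0. The lists without Sdc4 and without Lyz2 were not planned, and with Sdc4 the NC2 sum lies above those of HC1 and HC2. The mitoribosomal sum is highest in NC1 (3951 RPM) and lowest in NC2 (2664 RPM), the satellite cell and proliferation sums are highest in NC1 and lowest in NC3 (96.4 and 28.2 RPM), and the macrophage sum without Lyz2 is lowest in NC1 (4410 RPM) and highest in NC2 (10580 RPM).

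The subunits were compared next. The median log2 fold change was 0.18 for the 24 small-subunit genes, of which 16 (66.7%) were above 0 and 0 were called. It was 0.36 for the 45 large-subunit genes, of which 35 (77.8%) were above 0, and Mrpl14 and Mrpl52 (4.44%) were called. Among all genes averaging 1 RPM or more, 62.1% were above 0 and 4.75% were called. In RPM, the small subunit summed to 1155, 797 and 1036 in normocapnia and to 1024, 997, 1144 and 1011 in hypercapnia. The large subunit summed to 2796, 1867 and 1855 in normocapnia and to 2537, 2317, 2597 and 2483 in hypercapnia. The ratio of the small to the large sum was 0.413, 0.427 and 0.558 in normocapnia and 0.404, 0.430, 0.441 and 0.407 in hypercapnia. NC3 alone stood outside a band of 0.404 to 0.441, and the ratio was otherwise alike in both groups.

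By descent, 26 of the proteins belong to families found in all ribosomes, 17 to families shared with bacteria only, and 26 are classed by their systematic names as mitochondrial. The mitochondrial class includes Mrps18a and Mrps18b, which are nonetheless related to the bacterial S18 protein. The median log2 fold changes of the classes, in that order, were 0.18, 0.36 and 0.32, with 16, 13 and 22 genes above 0. These are 61.5%, 76.5% and 84.6%, against 62.1% of all genes averaging 1 RPM or more. NC3 lay below all hypercapnic libraries in 14 of the 26 universal, 14 of the 17 bacterial and 19 of the 26 mitochondrial genes, that is 53.8%, 82.4% and 73.1%, against 55.5% of all genes averaging 1 RPM or more. Only Mrpl14 among the universal and Mrpl52 among the mitochondrial genes was called.

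Mrps18a, Mrps18b and Mrps18c encode related proteins that take different places in the ribosome, the first in the large subunit and the others in the small subunit. Mrps18a had 6.16, 12.2 and 0.482 RPM in normocapnia and 18.4, 15.4, 4.44 and 5.89 RPM in hypercapnia. HC1 and HC2 were high and HC3 and HC4 low, so the groups overlapped (log2 fold change 1.01, SE 0.91). That difference was 0.11 without NC3 and 1.68 without NC2. Mrps18c had 3.39, 8.98 and 0.551 RPM and then 9.24, 6.33, 3.19 and 5.48 RPM (0.72, SE 0.69), with NC3 again the lowest. It was 0.02 without NC3 and 1.36 without NC2. Mrps18b had 68.0, 61.2 and 115 RPM and then 60.2, 61.9, 89.3 and 75.6 RPM (-0.14, SE 0.27, and 0.13 without NC3), with NC3 the highest. Mrps30, the other large-subunit protein with a small-subunit symbol, had 69.8, 39.2 and 65.3 RPM and then 42.9, 46.6, 63.9 and 50.7 RPM, with no separation of the groups (-0.16, SE 0.25, and -0.41 to -0.01 on leaving out a library).

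The remaining small-subunit genes singled out by the naming rule were not called. Mrps16, of a bacterial family, had 43.4, 41.5 and 15.5 RPM in normocapnia and 65.1, 61.5, 51.5 and 42.7 RPM in hypercapnia. Of the hypercapnic libraries only HC4 fell below NC1 (log2 fold change 0.82, SE 0.40, and 0.35 without NC3), and it was called after quantile normalization alone (0.66). Mrps12, of the S12 family at the decoding center, had 20.8, 22.3 and 11.9 RPM and then 26.6, 22.2, 26.6 and 20.7 RPM (0.41, SE 0.24, and 0.14 without NC3). Mrps24, of the S3 family at the entry of the message, had 111, 71.3 and 37.4 RPM in normocapnia and stayed between 96.4 and 105 RPM in hypercapnia (0.58, SE 0.36). It was 0.17 without NC3, and 0.94 and called without NC1. Mrps23 had 139, 88.3 and 75.4 RPM in normocapnia and 129, 128, 111 and 129 RPM in hypercapnia (0.35, SE 0.22), and was 0.16 without NC3, and 0.60 and called without NC1. In both of these NC1 was the highest library. Mrps14 had 132, 83.3 and 86.5 RPM and then 111, 120, 110 and 104 RPM (0.17, SE 0.17, and 0.06 to 0.38 on leaving out a library). Mrps11, whose exons overlap those of Mrpl46 on the opposite strand, had 28.2, 16.9 and 40.5 RPM and then 17.5, 16.9, 29.7 and 18.2 RPM (-0.41, SE 0.35, with -0.12 without NC3 and -0.73 without NC2).

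In the large subunit, Mrpl18 had 175, 80.8 and 151 RPM in normocapnia and 168, 140, 173 and 157 RPM in hypercapnia (0.30, SE 0.28, with -0.03 without NC2 and 0.52 without NC1). Mrpl32, a protein of a bacterial family that is cut to its mature form by a protease of the inner membrane, had 48.0, 26.9 and 63.7 RPM and then 28.5, 24.0, 40.8 and 26.1 RPM (-0.56, SE 0.34), a difference of -0.29 without NC3, and of -0.90 with a call without NC2. NC2 lay among the hypercapnic libraries for Mrpl32 and below them all for Mrpl18.

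The table also holds 5 mitoribosomal proteins whose symbols follow another pattern, and 0 of them were called. Dap3, a small-subunit protein that binds GTP, had 68.8, 64.9 and 103 RPM in normocapnia and 55.0, 57.8, 80.7 and 62.2 RPM in hypercapnia (log2 fold change -0.28, SE 0.21, and -0.08 without NC3). Ptcd3, which contacts the message at the small subunit, had 90.2, 17.1 and 13.9 RPM and then 49.3, 40.7, 60.5 and 60.3 RPM (0.87, SE 0.68), with NC1 above and NC2 and NC3 below every hypercapnic library. It was 1.69 and called without NC1, 0.52 without NC2 and 0.38 without NC3. Chchd1 (0.22, SE 0.18), Aurkaip1 (0.54, SE 0.65) and Ict1, a hydrolase that frees stalled chains (-0.14, SE 0.39), also overlapped between the groups. Without NC3 these values were 0.03, -0.27 and 0.16.

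Genes that build and serve the mitoribosome were described in the same way. Of 23 assembly factors, 18 had log2 fold changes above 0 (median 0.33), that is 78.3% against 62.1% of all genes averaging 1 RPM or more. Of the 23, 0 were called higher and 1 (4.35%) lower, against 1.14% of all genes called lower, and 4.75% of genes averaging 1 RPM or more called in either direction. The called gene was Mterf3, a factor that acts on mitochondrial transcription and on ribosome assembly, with 6.91, 5.17 and 9.84 RPM in normocapnia and 4.07, 2.36, 4.81 and 4.13 RPM in hypercapnia (-0.77, SE 0.27, adjusted p 0.915 by limma). Its call held in 7 of 18 alternatives and was lost without NC1 (-0.79), NC3 (-0.56), HC1 (-0.80), HC2 (-0.60) or HC4 (-0.81). It was also lost with unfiltered edgeR (-1.11), quantile normalization (-1.08), median-of-ratios scaling with or without NC3, a mean-dependent prior and a pseudocount of 5 RPM (-0.47). Tfb1m, which methylates the RNA of the small subunit, had a log2 fold change of 0.38 (SE 0.16) and was not called, and was at 0.25 without NC2.

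Of 20 mitochondrial aminoacyl-tRNA synthetases, which load amino acids onto transfer RNA, 16 were above 0 (median 0.24) and 2 (10%) were called higher, against 1.43% of all genes. Of genes averaging 10 RPM or more, as 15 of the 20 do, 5.54% were called in either direction. Tars2, the synthetase for threonine, had 28.9, 25.0 and 22.0 RPM in normocapnia and 36.9, 42.9, 40.4 and 43.5 RPM in hypercapnia. The groups were apart, with a log2 fold change of 0.68 (SE 0.11, adjusted p 0.564 by limma), and it was called in 14 of 18 alternatives. Each analysis that left out a library kept the call, while it was lost with DESeq2 (0.55), unfiltered edgeR (0.61), median-of-ratios scaling (0.54) and quantile normalization (0.56). Rars2, the synthetase for arginine, had 17.6, 18.3 and 14.2 RPM in normocapnia and 21.9 RPM or more in hypercapnia (0.59, SE 0.16, adjusted p 0.852 by limma). It was called in 7 of 18 alternatives and not without NC3 (0.49), HC1 (0.51) or HC2 (0.53).

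The 15 translation factors had 8 log2 fold changes above 0, a median of 0.03 and 0 calls. Mtif2, which starts translation, had 11.4, 10.3 and 9.84 RPM in normocapnia and 9.33, 8.69, 8.75 and 8.94 RPM in hypercapnia, apart but close (-0.21, SE 0.05, adjusted p 0.814 by limma). Mtrf1, a release factor, had 18.4, 13.1 and 13.6 RPM and then 10.7, 12.2, 13.0 and 11.4 RPM (-0.31, SE 0.13, and -0.16 without NC1). The 16 factors of mitochondrial transcription and RNA processing had a median of 0.15 and 0 calls. Elac2, which trims the ends of transfer RNA, was at 0.75 (SE 0.33). It was called in 5 of 18 alternatives, with DESeq2 (0.60), filtered edgeR (0.64), median-of-ratios scaling with or without NC3 (0.61 and 0.65) and without NC1 (1.12). Hsd17b10, a subunit of mitochondrial RNase P, was at 0.94 (SE 0.82), with -0.06 without NC3 and 1.64 without NC1. The 9 regulators of mitochondrial biogenesis had a median of 0.03 and 0 calls. Nrf1, whose protein binds the palindrome given above, was at -0.39 (SE 0.23, and -0.24 without NC3). Esrra, a nuclear receptor that acts on mitochondrial genes, was at 1.21 (SE 0.71), with 0.35 without NC3, and 1.80 and called without NC2.

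Other families with a similar place in the cell were set beside the mitoribosomal proteins as a description. The 21 cytosolic ribosomal protein genes in the table had a median log2 fold change of 0.12, with 12 above 0, 0 called higher and 2 (9.52%) lower, against 1.14% of all genes called lower. Of genes averaging 10 RPM or more, as 14 of the 21 do, 5.54% were called in either direction. The 32 genes of complex I of the respiratory chain (Nduf symbols) had a median of 0.04, with 17 above 0 and 0 called. NC2 lay below all hypercapnic libraries in 52.2% of mitoribosomal protein genes, 23.8% of cytosolic ribosomal protein genes and 40.6% of complex I genes. The sum of complex I genes was 4566, 3322 and 3707 RPM in normocapnia and 3926, 3784, 3767 and 3443 RPM in hypercapnia, again highest in NC1 and lowest in NC2.

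Finally, the median of the family was set beside that of all genes under each analysis. Over the 18 alternatives the median log2 fold change of the 69 genes ran from 0.09 (DESeq2) to 0.45 (without NC1), and that of all genes at 1 RPM or more from -0.07 (without NC3) to 0.36 (without NC1). The median of the family was above that of all genes in each of them, by 0.06 to 0.22. Within single libraries, the median log2(RPM + 1) of the family exceeded that of all genes averaging 1 RPM or more by 0.78, 0.70 and 0.87 in normocapnia and by 0.92, 0.94, 0.77 and 0.78 in hypercapnia. The groups overlapped in this difference, with HC3 and HC4 below NC3.

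**Figure D5:**
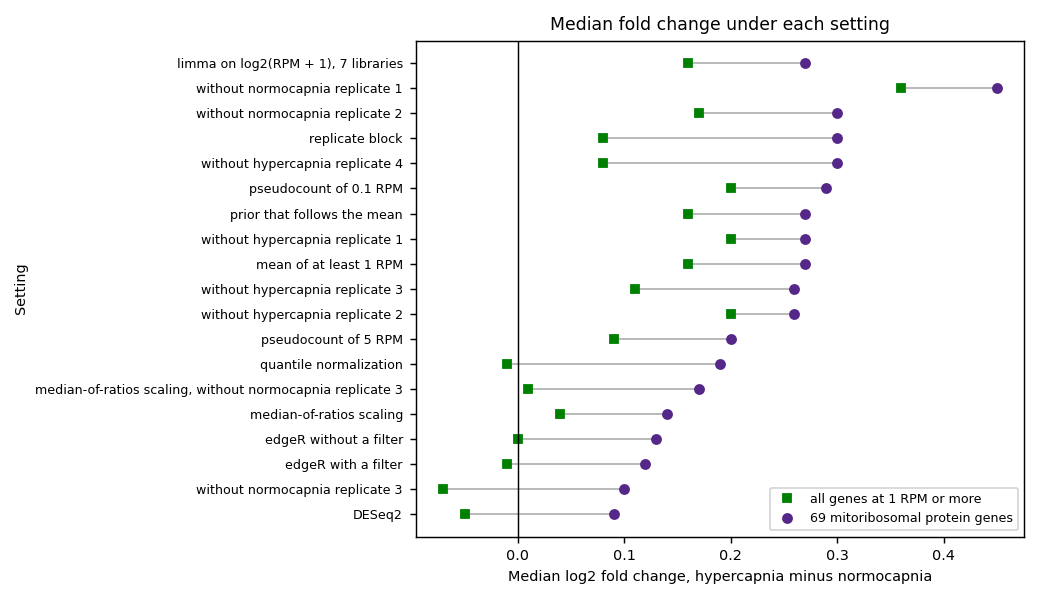
Median log2 fold change, hypercapnia minus normocapnia, of the 69 mitoribosomal protein genes (purple circles) and of all genes averaging 1 RPM or more (green squares), for limma on all 7 libraries (top) and for each of the 18 alternatives. The circle lies to the right of the square in every row, and both shift furthest to the right without normocapnia replicate 1 (0.45 and 0.36).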

How the data were processed

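RNA of sorted Pax7-GFP+ cells was amplified with the Ion AmpliSeq Transcriptome Mouse panel. The authors deposited a table of RPM (reads assigned to the panel, scaled to a fixed sum per library), which the labels tie to the Transcriptome Analysis Console, with the aligner and genome build not given in the sources used here. All values were whole multiples of 1 read, within 0.05 reads for 100% of values, which gave each library total. The precision of low values is limited by these depths, and intervals of counting error alone would not cover amplification.

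The members and lists were chosen with earlier results of these data known. Groups were taken from the labels. Hypercapnia (n = 4) was compared with normocapnia (n = 3) on log2(RPM + 1) values of the unfiltered table (23930 genes), by limma 3.58.1 under R 4.3.3, with a fold change that is understated for low genes because of the pseudocount. Adjusted p-values are by Benjamini-Hochberg over all genes, 2-sided. Named were all called members, the 3 with the largest mean and the 3 higher and 3 lower with the smallest p in each subunit, the Mrps18 genes and Mrps30. All mitoribosomal proteins with another symbol were named, and in the other lists of genes that serve mitochondria the called genes and the 2 with the smallest p. The rule did not cover the cytosolic ribosomal and complex I genes. Mrpl12, Mrpl35 and Mrpl42 fall outside this rule.

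Alternatives were DESeq2 1.42.0 and edgeR 4.0.16 (filtered or not) on the recovered reads, scaling by median-of-ratios, quantile normalization, pseudocounts of 0.1 and 5 RPM, dropping genes that average under 1 RPM, a variance prior that depends on the mean, a replicate block, and leaving out each library. Median-of-ratios scaling together with leaving out NC3 was chosen after seeing the data. The limma fit was tested on simulated reads with the same dispersion in both groups, unlike the data. The edgeR and DESeq2 fits were not tested in this way. Promoter windows are from RefSeq (GRCm38.p6), and overlaps of exons are from the GENCODE M21 annotation, in which all 69 genes were found and 28 overlap another gene.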

Additional observations from a re-analysis of the deposited data

Results flagged for a closer look

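Among the 4 hypercapnic libraries, 2 of the 69 genes had a library that stood off from the rest by more than Dixon's 95% criterion for 4 values, which chance meets in about 1 in 20 groups. In Mrps11, HC3 (29.7 RPM) lay above HC1, HC2 and HC4 (17.5, 16.9 and 18.2 RPM), with a gap of 0.897 of the whole range. In Mrps23, HC3 (111 RPM) lay below HC1, HC2 and HC4 (129, 128 and 129 RPM), with a gap of 0.944 of the range. The 3 normocapnic libraries are too few for this criterion.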

How the results depend on the processing

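Mrpl52 was called lower in all 18 alternatives. The count of members called higher, 1 in the reported analysis, was 2 with DESeq2, in both edgeR fits, under a mean-dependent prior and after median-of-ratios scaling, 3 with quantile normalization, and 0 with a pseudocount of 5 RPM. The count called lower, also 1, was 2 with DESeq2, edgeR with a filter, median-of-ratios scaling and quantile normalization. The share of all genes tested also moved, with 6.25% called by DESeq2 and 6.03% by edgeR with a filter beside 5.8% of the members in each, against 2.57% and 2.9% in the reported analysis. At 10 RPM or more, DESeq2 called 6.56% of the members and 10.6% of all, and filtered edgeR 6.56% and 7.91%. At that level it was 6.56% and 5.3% after median-of-ratios scaling and 8.2% and 6.08% after quantile normalization. The reported analysis had 3.28% and 5.54% there. Leaving out a library gave 0 to 15 called higher and 1 to 2 called lower, 45 to 56 of 69 genes above 0 (51 with all libraries) and a median log2 fold change of 0.10 to 0.45. The cause of these shifts was not tested. Genes above 0 numbered 41 with DESeq2 and 44 or more in the other alternatives.

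Among named genes, the sign of the log2 fold change turned without NC3 for 7, without NC2 for Mrpl18 and without NC1 for Ict1. The lowest and highest values on leaving out a library were -0.27 and 0.99 for Aurkaip1, -0.06 and 1.64 for Hsd17b10, -0.57 and 0.16 for Ict1 (0.00 without NC1), -1.01 and 0.00 for Mrpl54, -0.82 and 0.19 for Mrps15, -0.31 and 0.13 for Mrps18b, -0.66 and 0.13 for Mrps21, each at its reversed end without NC3, and -0.03 (without NC2) and 0.52 for Mrpl18. With median-of-ratios scaling and without NC3 it turned for Aurkaip1 (-0.20), Dap3 (0.00), Ict1 (0.25), Mrpl54 (0.09), Mrps15 (0.28), Mrps18b (0.22), Mrps21 (0.21) and Mrps30 (0.03), the cause again not tested.

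With the replicate block, 598 genes were called against 615 without it, members stayed at 1 higher and 1 lower, 53 were above 0, and their median was 0.30. HC4 has no partner and adds nothing to that fit. Libraries with the same number did not all deviate together (correlations of -0.375, 0.509 and 0.028 over genes for numbers 1 to 3), so the numbers were not taken as pairs.

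Over all genes, limma called 615 (55.8% higher), edgeR with a filter 802 (36.7%), edgeR without a filter 1049 (38.8%), DESeq2 1304 (39.8%), median-of-ratios scaling 612 (51.8%), quantile normalization 693 (48.5%), and limma without NC1 1990 (75.1%), without NC2 1205 (55.7%) and without NC3 616 (38.1%). The balance of directions thus moved by less with another scaling in limma than with the count models or without NC1 or NC3. After adjustment 0 members passed 0.05 in any alternative. Of the whole table, 29 genes passed in DESeq2, 8 in limma without NC1, 2 with median-of-ratios scaling without NC3, and 1 in limma without NC3. With 3 against 4 libraries and a median SD of 0.62 in normocapnia, modest differences of single genes lie within the spread, and 3 reads are worth 0.128 to 0.207 RPM, depending on the library.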
